A study of Marchantia polymorpha with 12 samples.

Results

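MpLOX6 (Mp2g12180), MpLOX8 (Mp2g12220) and MpLOX7 (Mp2g12250) are 3 lipoxygenase genes with neighbouring IDs on chromosome 2 of the liverwort Marchantia polymorpha. They were taken by gene ID, and each had 1 transcript among the 24751 listed, so that they make up 3 of 19421 genes. RNA was sequenced from whole thalli, the flat vegetative plant body, 14 days old, in 12 libraries. Both genotypes, Tak-1, the male laboratory accession, and Mperf15ko, were sampled intact (control) and 1 h after their blades were wounded, which gave 4 groups of 3 libraries. Per the labels' protocols, plants were raised from gemmae, the clonal propagules of this species, and a replicate held 12 plants. Neither the lesion of Mperf15ko nor the number of lines is described in the labels, so every genotype direction below rests on that label.

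Lipoxygenases add oxygen to polyunsaturated fatty acids, which is the first step in making oxylipins, the signals of wounded plants. CYP74 enzymes act on the hydroperoxides that result. Marchantia senses a precursor form of jasmonate through the receptor MpCOI1, which leads to removal of the repressor MpJAZ. The series asks how MpERF15, a wound-induced transcription factor of the AP2/ERF family, is tied to oxylipin synthesis.

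In the gene order of the MpTak2_v7.1 reference table, the lipoxygenases are interleaved with genes of glycoside hydrolase family 17. This family includes enzymes that cut beta-1,3-glucans such as callose. MpLOX6 comes first, then Mp2g12190, MpGH17.5, MpLOX8, MpGH17.6, MpGH17.7, MpLOX7 and MpGH17.8. The deposited files also list Mp2g12200, which has no match in that table, between Mp2g12190 and MpGH17.5 by ID. The transcripts of MpLOX6 and MpLOX7 were close in length, at 3168 and 3155 bases, and that of MpLOX8 was 3561 bases.

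Libraries held 17.2 to 30.4 M estimated reads, and no replicate pair matched within sampling noise (chi-square per gene of 15.3 to 63.0). MpERF15 was counted at 46 to 92 reads in the 6 control libraries and at 383 to 1087 in the 6 wounded ones, in both genotypes, so its reads do not check the genotype label. Of 13 marker genes listed for thallus cell types and for reproductive stages, 9 matched a symbol. Summed TPM (a level scaled to transcript length and library size) of the 3 air chamber and epidermis markers was 65.6 to 80.8 in Tak-1 control and 116 to 133 in wounded Tak-1 libraries, and 74.6 to 80.6 and 124 to 128 in Mperf15ko. Most of this rise was in MpSYP13A, with means of 38.03 and 70.73 TPM in Tak-1 and 41.55 and 81.75 TPM in Mperf15ko. MpNOP1 had means of 16.39 and 23.81 TPM and 19.54 and 25.97 TPM, and MpSYP13B of 19.86 and 28.09 TPM and 16.02 and 18.81 TPM. The 3 oil body markers summed to 8.08 to 12.7 and 26.0 to 32.4 TPM in Tak-1, and to 5.96 to 9.73 and 15.7 to 24.8 TPM in Mperf15ko. Of these, MpC1HDZ had means of 5.25 and 26.3 TPM in control and wounded Tak-1 and 4.17 and 18.5 TPM in Mperf15ko. The other two were lower in the means of wounded thalli, MpERF13 at 1.46 and 0.850 TPM and 1.04 and 0.531 TPM, and MpSYP12B at 3.06 and 2.80 TPM and 2.53 and 2.15 TPM. MpGCAM1, of gemma cups, was at 0.491 to 1.28 and 4.10 to 4.80 TPM in Tak-1, and at 0.277 to 0.506 and 3.56 to 3.91 TPM in Mperf15ko. The germ line marker MpDUO1 and the sporophyte marker MpBELL1 stayed at or below 1.03 TPM in all 12 libraries. MpDUO1 was at 0.117 to 0.285 and 0.538 to 0.671 TPM in Tak-1, and at 0.273 to 0.328 and 0.732 to 1.03 TPM in Mperf15ko. MpBELL1, at 0.189 to 0.407 and 0.249 to 0.453 TPM, overlapped in Tak-1, and was at 0.142 to 0.236 and 0.349 to 0.892 TPM in Mperf15ko. The sum listed under air chamber and epidermis, MpC1HDZ, MpGCAM1 and MpDUO1 were thus higher in wounded thalli. Their part in the responses below was not tested. In RNA from whole thalli, a change in the number of cells that express a gene and a change in RNA per cell cannot be told apart.

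The neighbours shared reads with one another. Estimated reads were whole numbers, within 0.01 of a read, in 3 of 12 libraries for MpLOX6, in 3 of 12 for MpLOX8 and in 9 of 12 for MpLOX7. A fraction arises when the quantifier divides a read between transcripts that it matches. In Tak-1 control replicate 1, MpLOX6 had 21.6 and MpLOX8 had 62.4 reads, which sum to 84. In Mperf15ko control replicate 2, they had 26.6 and 25.4 reads, which sum to 52. The sum of MpLOX6 and MpLOX8 was whole in 9 of 12 libraries, and the sum of all 3 genes in 12 of 12. Sums of MpLOX7 with either of the others were whole in 3 of 12. In the remaining 3 libraries, Tak-1 control replicate 2, Tak-1 wounded replicate 3 and Mperf15ko wounded replicate 3, all 3 genes had fractions. The sums therefore account for the divided reads within this set of 3, mainly between MpLOX6 and MpLOX8.

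**Figure D1:**
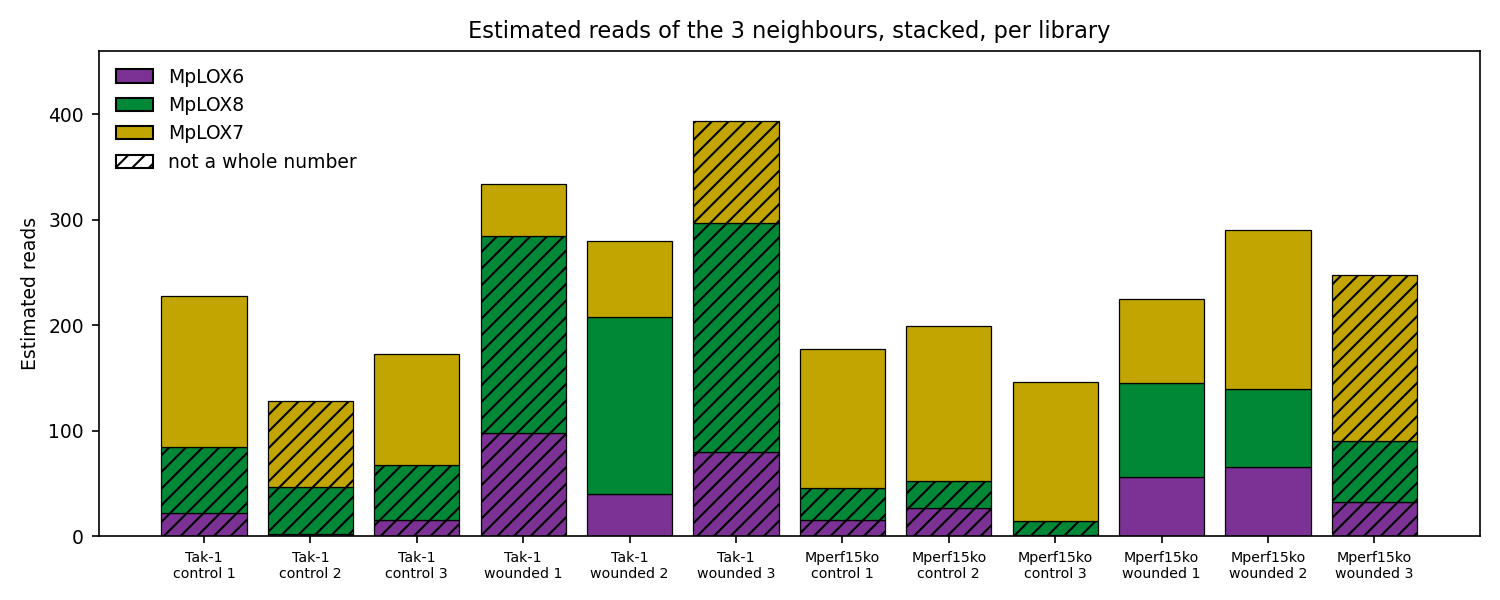
Estimated reads (y axis) of MpLOX6, MpLOX8 and MpLOX7, stacked, in each of the 12 libraries (x axis), with hatching where a value is not a whole number. MpLOX6 and MpLOX8 are hatched in the same 9 libraries, MpLOX7 in 3 of these, and all 12 stacks sum to whole numbers, from 128 in Tak-1 control replicate 2 to 393 in Tak-1 wounded replicate 3.

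MpLOX6 had the lowest mean of the 3 genes in intact thalli and rose after wounding. In Tak-1 its estimated reads were 21.6, 2.02 and 15.5 in the controls (replicates 1 to 3) and 98.1, 40 and 79.3 after wounding. In Mperf15ko it had 15.4, 26.6 and 1.09 reads in control and 56, 65 and 32.1 in wounded thalli. Tak-1 control replicate 2 and Mperf15ko control replicate 3 stood far below their groups, and in each genotype every wounded library lay above every control library. As a share of the reads of MpLOX6 and MpLOX8 together, MpLOX6 took 4.35% in Tak-1 control replicate 2 and 7.76% in Mperf15ko control replicate 3. In the other 10 libraries it took 19.2% to 51.2%. The per-length level of MpLOX6 went from 0.222 ± 0.156 to 1.66 ± 0.906 TPM in Tak-1 (SD, n = 3) and from 0.309 ± 0.288 to 1.30 ± 0.372 TPM in Mperf15ko (SD, n = 3).

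MpLOX8 varied less among replicates. Intact Tak-1 thalli had 0.855, 0.857 and 0.844 TPM (replicates 1 to 3), from 62.4, 44.3 and 51.5 reads, and wounded ones 4.39, 3.06 and 3.73 TPM, from 186, 168 and 217 reads. In Mperf15ko its TPM was 0.534, 0.505 and 0.254 in control thalli, from 30.6, 25.4 and 12.9 reads, and 2.14, 1.52 and 1.40 in wounded thalli, from 89, 74 and 58.2 reads. The 4 groups did not overlap: Mperf15ko control was lowest, followed by Tak-1 control, wounded Mperf15ko and wounded Tak-1.

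MpLOX7 showed another order. In Tak-1 its TPM was 2.24, 1.80 and 1.98 before wounding, from 144, 81.7 and 106 reads, and 1.34, 1.49 and 1.89 after it, from 50, 72 and 96.5 reads. In Mperf15ko it was 2.60, 3.33 and 2.95 in control thalli, from 131, 147 and 132 reads, and 2.19, 3.52 and 4.28 in wounded thalli, from 80, 151 and 157 reads. Control and wounded libraries overlapped in each genotype. Mperf15ko libraries lay above those of Tak-1 in control thalli and again in wounded thalli, although wounded Mperf15ko replicate 1 (2.19 TPM) lay below Tak-1 control replicate 1 (2.24 TPM).

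**Figure D2:**
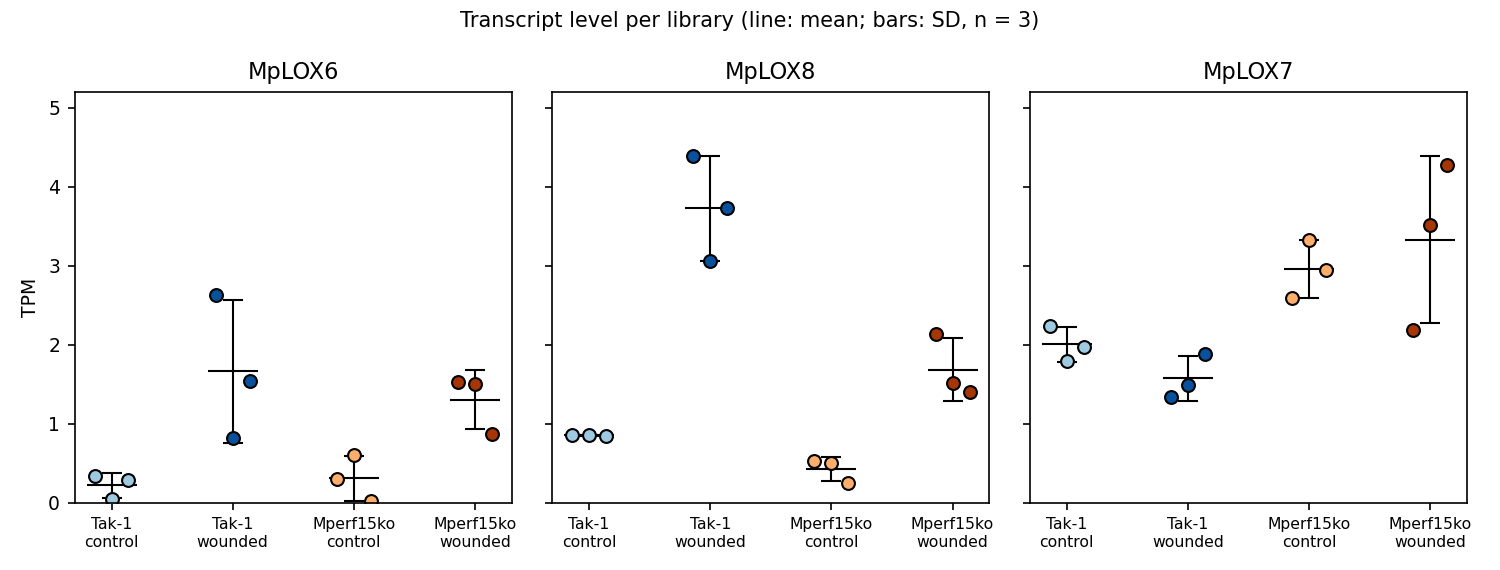
Level in TPM (y axis) of MpLOX6, MpLOX8 and MpLOX7 in each library (points) of the 4 groups (x axis), with the mean (line) and SD (bars, n = 3). MpLOX6 and MpLOX8 are higher in wounded than in control libraries of each genotype, MpLOX8 lies lower in Mperf15ko than in Tak-1, and MpLOX7 lies higher in Mperf15ko than in Tak-1 thalli of the same treatment.

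The first comparison asked how the neighbours responded to wounding in Tak-1. MpLOX6 and MpLOX8 rose and MpLOX7 did not pass the test, so 2 of 3 genes were called higher, where 23.4% of the 14246 genes tested were called higher, 22.8% lower and 46.2% in either direction. MpLOX8 rose 4.38-fold (log2 fold change 2.13, SE 0.26, edgeR adjusted p = 9.0e-06). MpLOX6 rose by 2.80 on the log2 scale with a wide interval (SE 0.72, 95% interval 1.23 to 4.36, edgeR adjusted p = 0.0066). MpLOX7 had a log2 fold change of -0.35 (SE 0.22, 95% interval -0.83 to 0.12, edgeR adjusted p = 0.21). With MpLOX6 and MpLOX8 summed into 1 feature, so that their division of reads no longer mattered, the rise was 4.92-fold (2.30, SE 0.34, edgeR adjusted p = 9.0e-05). Tests of this sum, here and below, were not planned.

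Wounding of Mperf15ko gave the same calls. Again 2 of 3 genes were called higher, against 23.5% of all genes called higher, 20.1% lower and 43.6% in either direction. MpLOX8 rose 3.90-fold (log2 fold change 1.96, SE 0.29, edgeR adjusted p = 5.7e-05). MpLOX6 rose by 2.09 (SE 0.72, 95% interval 0.53 to 3.65, edgeR adjusted p = 0.032). Leaving out control replicate 1 (2.04) or 3 (1.55) of this line, or its wounded replicate 1 (1.94) or 2 (1.94), ended this call. MpLOX7 changed by 0.17 without passing (SE 0.21, 95% interval -0.29 to 0.62, edgeR adjusted p = 0.55). The sum of MpLOX6 and MpLOX8 rose 4.05-fold (2.02, SE 0.36, edgeR adjusted p = 0.00048).

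The wound responses of the 3 genes were not shown to differ between the genotypes. The difference, Mperf15ko minus Tak-1, was -0.17 for MpLOX8 (SE 0.39, 95% interval -1.01 to 0.67, edgeR adjusted p = 0.93). It was 0.52 for MpLOX7 (SE 0.31, 95% interval -0.13 to 1.18, edgeR adjusted p = 0.56) and -0.71 for MpLOX6 (SE 1.02, 95% interval -2.93 to 1.52, edgeR adjusted p = 0.86). By edgeR 0 of 3 genes were called, and 0 of 3 had an unadjusted p under 0.05, against 1.07% of all genes called. DESeq2 called 0 of 3, and so did limma on log2 TPM with either pseudocount. With limma on log2(TPM + 1), 1 of 3 had an unadjusted p under 0.05. The same count was 1 of 3 by edgeR without Mperf15ko wounded replicate 1. The interval of MpLOX6 was the widest of the 3.

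Intact thalli of the 2 genotypes were compared next. MpLOX8 was lower in Mperf15ko, and MpLOX7 and MpLOX6 did not pass, so 1 of 3 genes was called, where 28.1% of all genes were called and 14.6% were called lower. MpLOX8 was 1.95-fold lower in Mperf15ko (log2 fold change -0.96, SE 0.29, edgeR adjusted p = 0.024). Leaving out control replicate 3 of Tak-1 (-0.915) or of Mperf15ko (-0.693) ended this call, and with MpLOX6 and MpLOX8 summed the difference was -0.58 (SE 0.38, edgeR adjusted p = 0.28). MpLOX7 was 1.47-fold higher on average (0.56, SE 0.21, 95% interval 0.10 to 1.02, edgeR adjusted p = 0.066), and its control libraries of the genotypes did not overlap. Its adjusted p became 0.027 without Mperf15ko wounded replicate 1. MpLOX6 differed by 0.38 (SE 0.80, 95% interval -1.37 to 2.13, edgeR adjusted p = 0.77).

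After wounding, MpLOX8 was lower and MpLOX7 higher in Mperf15ko, and 2 of 3 genes were called, where 23.5% of all genes were called, 11.7% lower and 11.8% higher. MpLOX8 was 2.19-fold lower (log2 fold change -1.13, SE 0.25, edgeR adjusted p = 0.0057). MpLOX7 was 2.11-fold higher (1.08, SE 0.22, edgeR adjusted p = 0.0036). Both calls held in all 20 alternatives tried. MpLOX6 differed by -0.33 (SE 0.63, 95% interval -1.70 to 1.04, edgeR adjusted p = 0.75). With MpLOX6 and MpLOX8 summed, the difference was -0.86 (SE 0.32, edgeR adjusted p = 0.072). This sum passed in 4 of 20 alternatives, which were DESeq2 (-0.872, adjusted p = 0.034), a fit of the wounded groups alone (-0.877, edgeR adjusted p = 0.037), limma on log2(TPM + 1) (-0.665, adjusted p = 0.043) and leaving out Mperf15ko control replicate 3 (-0.878, edgeR adjusted p = 0.022).

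**Figure D3:**
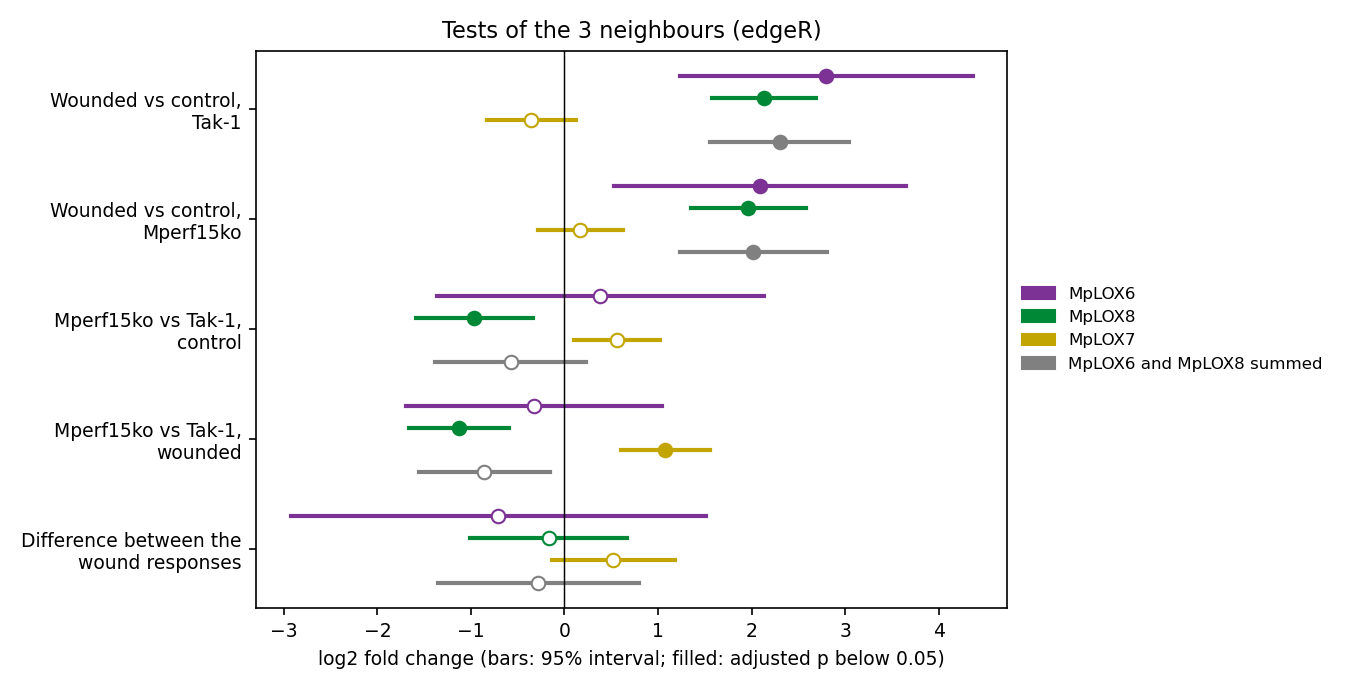
Log2 fold changes (x axis) with 95% intervals for MpLOX6, MpLOX8, MpLOX7 and the sum of MpLOX6 and MpLOX8 in the 5 edgeR contrasts (y axis), filled where the adjusted p is below 0.05. MpLOX8 (2.13 and 1.96) and the sum (2.30 and 2.02) rise with wounding in both genotypes, MpLOX7 crosses 0 there, and in wounded thalli MpLOX8 (-1.13) and MpLOX7 (1.08) differ between the genotypes in opposite directions.

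Ratios between 2 neighbours within a library tested directly whether they responded differently, since scaling between libraries cancels. The ratio was taken of estimated reads with 0.5 read added to each, and labels were permuted within genotype or within treatment in exact two-sided tests, whose smallest possible p is 0.005. In all, 6 ratio tests were made, with p-values adjusted over the 6.

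The ratio of MpLOX7 to MpLOX8 differed both with wounding and between the genotypes. On the log2 scale it was 1.20, 0.87 and 1.03 in intact Tak-1 (replicates 1 to 3), -1.88, -1.22 and -1.17 in wounded Tak-1, 2.08, 2.51 and 3.30 in Mperf15ko control, and -0.15, 1.02 and 1.42 in wounded Mperf15ko. It fell by 2.16 with wounding (exact permutation p = 0.005, adjusted p = 0.01), where it fell by 2.46 in Tak-1 and fell by 1.87 in Mperf15ko. It was higher by 1.89 in Mperf15ko than in Tak-1 (exact permutation p = 0.005, adjusted p = 0.01), by 1.6 in control and 2.19 in wounded thalli. Both p-values are the smallest the test can give, and the SD within groups was 0.56.

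The ratio of MpLOX6 to MpLOX7 rose with wounding by 3.03 (exact permutation p = 0.005, adjusted p = 0.01), by 3.44 in Tak-1 and 2.63 in Mperf15ko. Between the genotypes it differed by -0.87 (exact permutation p = 0.29, adjusted p = 0.29), with an SD within groups of 1.41. MpLOX6 and MpLOX8, the pair that shared most reads, were not shown to respond differently. Their ratio differed by 0.87 with wounding (exact permutation p = 0.25, adjusted p = 0.29) and by 1.02 between the genotypes (exact permutation p = 0.15, adjusted p = 0.225), against an SD within groups of 1.14. Without Mperf15ko control replicate 3 the genotype difference of this ratio was 1.46, with an adjusted p of 0.022 in the exact permutation test.

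A ratio of the summed reads of MpLOX6 and MpLOX8 to those of MpLOX7 does not depend on how the first pair was divided. It rose with wounding by 2.33 and was lower in Mperf15ko (a difference of -1.6), each at the smallest exact permutation p of 0.005. This ratio was added after the fractions had been seen.

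**Figure D4:**
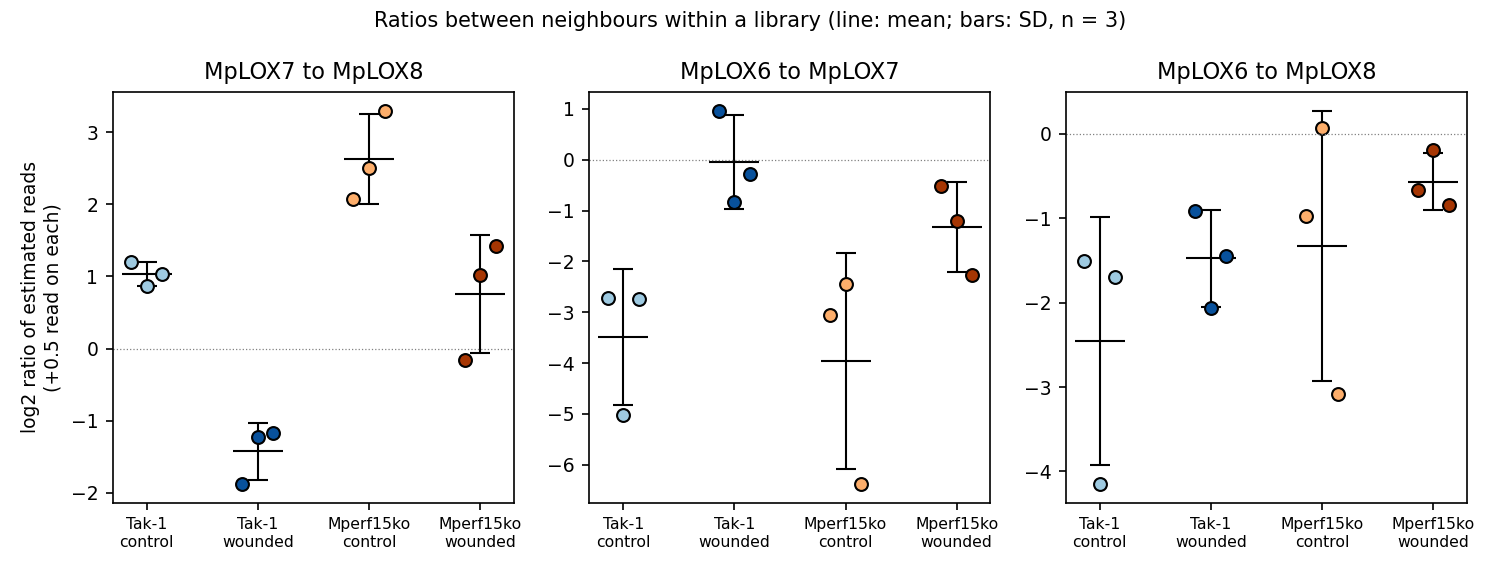
Log2 ratio of estimated reads (y axis, 0.5 read added to each) between pairs of neighbours in each library (points) of the 4 groups (x axis), with the mean (line) and SD (bars, n = 3). The ratio of MpLOX7 to MpLOX8 is above 0 in all 6 control libraries and below 0 in all 3 wounded Tak-1 libraries, while that of MpLOX6 to MpLOX8 overlaps between control and wounded libraries.

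The 3 genes summed rose with wounding and did not pass between the genotypes. Their summed level was 3.08 ± 0.369 TPM in Tak-1 control and 6.96 ± 1.5 TPM in wounded Tak-1 (SD, n = 3), and 3.70 ± 0.644 and 6.32 ± 0.401 TPM in Mperf15ko (SD, n = 3). As 1 feature the set rose 2.33-fold in Tak-1 (log2 fold change 1.22, SE 0.17, edgeR adjusted p = 4.0e-05). In Mperf15ko the rise was 1.75-fold (0.81, SE 0.17, edgeR adjusted p = 0.0015). It did not pass between the genotypes in control (0.23, 95% interval -0.14 to 0.60, edgeR adjusted p = 0.35) or in wounded thalli (-0.18, 95% interval -0.54 to 0.18, edgeR adjusted p = 0.46). MpLOX7 made up 63.6% to 66.6% of the summed TPM in Tak-1 control libraries and 16.1% to 27.7% in wounded ones, and 75.1% to 91.4% and 37.4% to 65.3% in Mperf15ko. MpLOX8 made up 24.9% to 31.8% and 52.1% to 56.9% in Tak-1, and 7.86% to 15.5% and 21.3% to 36.6% in Mperf15ko.

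By level, MpLOX7 was the highest of the 3 genes in all 6 control libraries and in all 3 wounded Mperf15ko libraries, and MpLOX8 in all 3 wounded Tak-1 libraries. MpLOX6 and MpLOX7 did not differ beyond their spread in wounded Tak-1 (1.66 ± 0.906 and 1.57 ± 0.280 TPM, SD, n = 3). MpLOX6 and MpLOX8 did not in Mperf15ko, either in control (0.309 ± 0.288 and 0.431 ± 0.154 TPM, SD, n = 3) or in wounded thalli (1.30 ± 0.372 and 1.69 ± 0.399 TPM, SD, n = 3).

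All 3 are minor members of their family by level. Among the 16 lipoxygenases that have a symbol, ranked by mean TPM, MpLOX6 was 15th in control thalli of both genotypes and 11th and 12th in wounded Tak-1 and Mperf15ko. MpLOX8 went from 13th to 6th in Tak-1 and from 14th to 11th in Mperf15ko, and MpLOX7 from 11th to 13th and from 5th to 7th. Each gene held between 0.103% and 1.86% of the summed lipoxygenase TPM of a group. Fractional reads are not particular to the 3 neighbours: MpLOX16 and MpLOX14 had whole counts in 0 of 12 libraries and MpLOX3 in 1 of 12.

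Of the 13 other lipoxygenases 12 were tested. In the Tak-1 wound response 4 of these rose and 4 fell, where 23.4% of all genes rose and 22.8% fell, with a median log2 fold change of -0.12 beside -0.05 over all genes. In Mperf15ko 4 rose and 2 fell, where 23.5% and 20.1% of all genes did (median 0.25 beside -0.02 over all genes). In control thalli 0 were higher and 6 lower in Mperf15ko, where 13.6% of all genes were higher and 14.6% lower (median -0.34 beside -0.01). In wounded thalli 1 was higher and 5 were lower, where 11.8% and 11.7% of all genes were (median -0.30 beside 0.02). The single higher gene was MpLOX2, at 0.36 (SE 0.10, edgeR adjusted p = 0.022), so that MpLOX7 was 1 of 2 lipoxygenases called higher in wounded Mperf15ko. Further along the pathway, 5 genes carried a symbol from the oxylipin list. In Tak-1 the CYP74 gene MpCYP74N2 (1.15), MpJAZ (2.48) and MpGH3A (2.22), of a family that conjugates hormones to amino acids, rose. Over all genes 23.4% rose and 22.8% fell. The other two, MpCYP74N1 and MpCOI1, had log2 fold changes of -0.18 (SE 0.13, edgeR adjusted p = 0.28) and -0.10 (SE 0.09, edgeR adjusted p = 0.40). In Mperf15ko the same 3 genes rose (MpCYP74N2 0.665, MpJAZ 2.61, MpGH3A 2.36), where 23.5% of all genes did. MpCYP74N1 (-0.34, SE 0.13, edgeR adjusted p = 0.045) and MpCOI1 (-0.30, SE 0.09, edgeR adjusted p = 0.017) fell, where 20.1% of all genes did. With upper quartile scaling the falls of MpCYP74N1 (-0.463, edgeR adjusted p = 0.00651) and MpCOI1 (-0.413, edgeR adjusted p = 0.00199) in Mperf15ko held. Other calls depended on scaling: with upper quartile scaling MpCYP74N1 (-0.31, edgeR adjusted p = 0.044) and MpCOI1 (-0.23, edgeR adjusted p = 0.0485) also fell in Tak-1. MpCYP74N2 then did not pass in Mperf15ko (0.55, edgeR adjusted p = 0.0739). Taken as Mperf15ko minus Tak-1, the response difference passed for 0 of the 5. It was -0.20 for MpCOI1 (SE 0.13, edgeR adjusted p = 0.609), -0.17 for MpCYP74N1 (SE 0.18, edgeR adjusted p = 0.8) and -0.48 for MpCYP74N2 (SE 0.32, edgeR adjusted p = 0.627). For MpJAZ it was 0.136 (SE 0.118, edgeR adjusted p = 0.729) and for MpGH3A 0.143 (SE 0.152, edgeR adjusted p = 0.792). Between control genotypes 1 of 5 was called, MpCOI1, higher in Mperf15ko (0.315, SE 0.09, edgeR adjusted p = 0.019), where 13.6% of all genes were higher. Between wounded genotypes 1 of 5 was called, MpCYP74N2, lower in Mperf15ko (-0.73, SE 0.23, edgeR adjusted p = 0.039), where 11.7% of all genes were lower.

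The glycoside hydrolases of the neighbourhood did not share 1 pattern. Of 4 in the neighbourhood 3 were tested, and MpGH17.8 had 0 to 2 reads per library. MpGH17.6, between MpLOX8 and MpLOX7, had 0, 0 and 1.31 reads in intact Tak-1 (replicates 1 to 3) and 7.12, 14.0 and 9 after wounding. In Mperf15ko it had 0 reads in all 3 control libraries and 13.1, 11 and 10 in wounded ones. Its wounded libraries lay above its controls in both genotypes, with at most 14.0 reads in any library. It passed the filter on low counts only through the wounded groups, so its calls for wounding are no support for a rise. It shared reads with Mp2g12200: each had whole counts in 8 of 12 libraries, and their sum in 12 of 12.

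MpGH17.7, next to MpLOX7, was lower in Mperf15ko. Its reads were 130, 98.7 and 224 in intact Tak-1 (replicates 1 to 3), 91.8, 123 and 122 in wounded Tak-1, 25.0, 36.5 and 18.0 in Mperf15ko control and 16.2, 23.2 and 6.47 in wounded Mperf15ko. The genotypes did not overlap, with log2 fold changes of -2.29 in control (SE 0.39, edgeR adjusted p = 0.00095) and -2.65 in wounded thalli (SE 0.42, edgeR adjusted p = 0.00071). It did not pass for wounding in Tak-1 (-0.20, SE 0.35, edgeR adjusted p = 0.66) or Mperf15ko (-0.57, SE 0.46, edgeR adjusted p = 0.34). MpGH17.7 had whole counts in 1 of 12 libraries, and the sums tried with MpGH17.5 and MpGH17.6 were whole in 1 of 12, so where its divided reads went was not found. MpGH17.5, next to MpLOX8, had 17.2, 0 and 11.7 reads in intact Tak-1, 15.1, 6.76 and 11.9 in wounded Tak-1, 9.25, 6.15 and 5.99 in intact Mperf15ko and 2.24, 2.54 and 0 in wounded Mperf15ko. It was called in none of the 5 edgeR contrasts, with a log2 fold change of -2.48 between wounded genotypes (SE 0.94, edgeR adjusted p = 0.069).

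Among the 25 other genes from Mp2g12080 to Mp2g12350, 14 were tested. With wounding 4 were called higher and 2 lower in Tak-1, against 23.4% and 22.8% of all genes, and 2 higher and 2 lower under upper quartile scaling. In Mperf15ko 3 were called higher and 1 lower, against 23.5% and 20.1% of all genes. MpGH17.6 is among those called higher in each. Medians were 0.20 and -0.07 beside -0.05 and -0.02 over all genes. Mperf15ko controls had 2 genes higher (1 under upper quartile scaling) and 3 lower, against 13.6% and 14.6% of all genes. Wounded Mperf15ko thalli had 0 higher and 1 lower, which was MpGH17.7, against 11.8% and 11.7% of all genes. Next to MpLOX6, Mp2g12190 was called higher after wounding in Tak-1 (0.79, SE 0.28, edgeR adjusted p = 0.034), but not under upper quartile scaling (0.66, edgeR adjusted p = 0.0676), and Mp2g12170, on its other side, had 0 or 1 read per library.

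**Figure D5:**
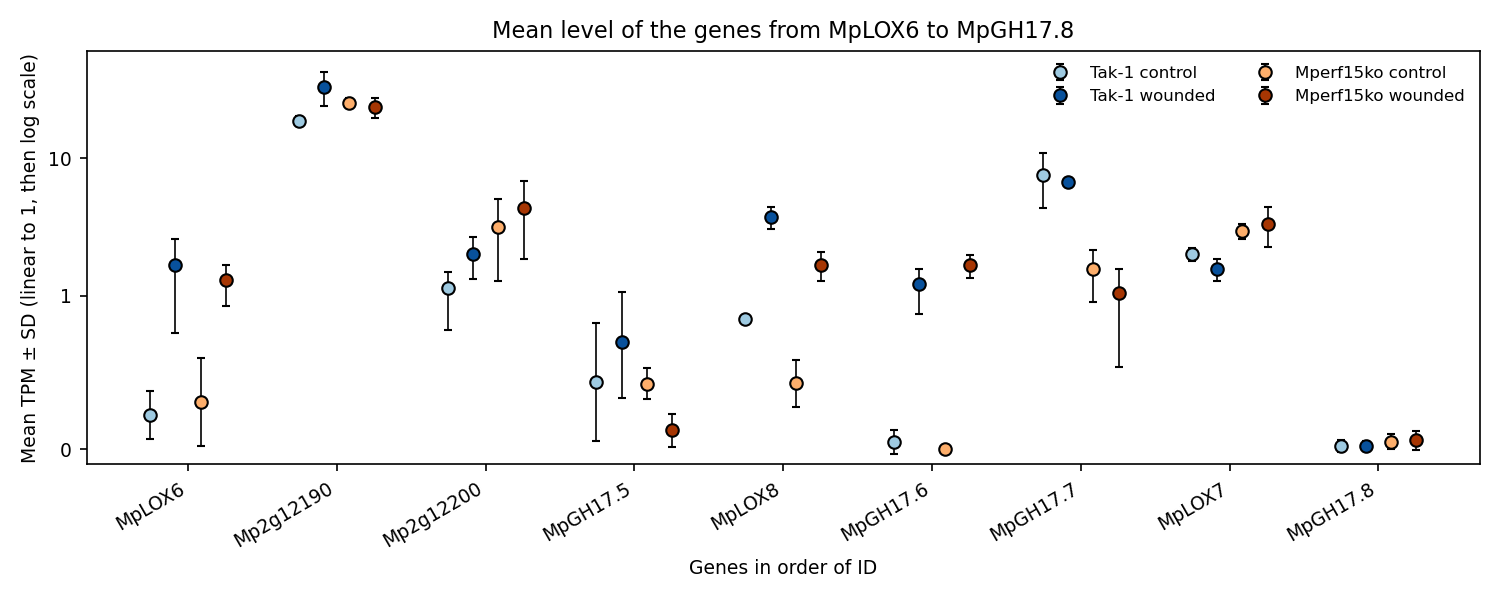
Mean TPM with SD (y axis, linear to 1 and on a log scale above, n = 3) of the 9 genes from MpLOX6 to MpGH17.8 in order of ID (x axis) in the 4 groups. MpLOX6, MpLOX8 and MpGH17.6 lie higher in wounded thalli of both genotypes, MpGH17.7 lies higher in Tak-1, and MpLOX7 lies higher in Mperf15ko thalli of the same treatment.

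Genes with the most similar profiles differed for each of the 3. Likeness was measured by Pearson's r of log2 CPM (counts scaled to library size) over the 12 libraries, which share the 4 groups, and is given as a description. MpLOX8 was closest to MpRLK-Pelle_RKF3c (r = 0.974), a receptor-like kinase by its symbol, whose mean was 1.36 and 5.35 TPM in control and wounded Tak-1 and 0.839 and 2.74 TPM in Mperf15ko. Next came Mp4g02300, Mp1g08690, the LEA gene MpLEA-like22 and Mp5g16770 (r = 0.973 to 0.968). MpLOX6 was closest to MpC3H5 (r = 0.947) and MpPL1.4 (r = 0.943), whose means moved from 15.7 to 22.7 and from 13.0 to 15.4 TPM in Tak-1, and then to Mp3g24020, Mp7g11880 and Mp5g13500 (r = 0.922 to 0.904). MpLOX7 was closest to Mp8g01060 and Mp1g15480 (both r = 0.941), then Mp2g13040, Mp5g20360 and Mp5g14940 (r = 0.919 to 0.914). Of these, Mp5g14940 was at 7.41 and 4.24 TPM in control and wounded Tak-1 and at 21.0 and 23.0 TPM in Mperf15ko. Between neighbours, r was 0.81 for MpLOX6 with MpLOX8, -0.55 for MpLOX8 with MpLOX7 and -0.13 for MpLOX6 with MpLOX7. MpERF15 had r = 0.819 with MpLOX8, 0.794 with MpLOX6 and -0.065 with MpLOX7. Many genes were at least as similar: among the tested genes MpERF15 had rank 970 for MpLOX8, rank 628 for MpLOX6 and rank 8133 for MpLOX7. MpLOX8 had rank 441 for MpLOX6, and MpLOX6 had rank 1066 for MpLOX8.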

How the data were processed

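RNA from the 12 libraries was quantified by the submitters. Per the file headers, each deposited file is a Salmon table with 1 row per transcript, holding estimated counts of reads and TPM. CASAVA and Salmon 0.7.2 appear in the submitters' processing notes, with no role stated. The sources used here give neither the genome build nor the transcript annotation or index. Deposited TPM values sum to a constant total per library. Per library, 30.5% to 35.5% of transcripts had a fractional estimated count as deposited.

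Estimated counts were summed per gene and rounded. After filterByExpr, 14246 genes were tested with edgeR 4.0.16 in R 4.3.3 (TMM, glmQLFit robust, glmQLFTest) over all 12 libraries as 4 group means, without covariates. A gene was called at an adjusted p (Benjamini-Hochberg over all genes) below 0.05. Standard errors and 95% intervals were derived from the fold change and its statistic, and cover the spread between libraries. Ratio tests were exact permutations over libraries. Both procedures were tested on simulated data. Alternatives used DESeq2 1.42.0, limma 3.58.1 on log2(TPM + 0.1 or 1), other scaling, filters, features and libraries left out. Names and gene order came from MpTak2_v7.1, where 17386 of 19421 IDs matched a locus tag. Its coordinates were not used, since the build of the files is not stated. The text names the 3 genes, tested or adjoining genes of the neighbourhood, family members beside them, MpERF15 and the 5 most similar profiles for each. The division of reads between Mp2g12200 and MpGH17.6, and the read values of the GH17 genes, were chosen after values were seen. Tests of MpLOX6 and MpLOX8 summed were not planned. Members and lists were chosen with earlier results of these data known. Same-numbered replicates were not treated as pairs.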

Additional observations from a re-analysis of the deposited data

How the results depend on the processing

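The calls of MpLOX6 and MpLOX8 in the Tak-1 wound response, of MpLOX8 in the Mperf15ko wound response and of MpLOX8 and MpLOX7 between wounded genotypes kept their direction and significance in all 20 alternatives of each. All of these alternatives kept the deposited division of reads between MpLOX6 and MpLOX8. With this pair summed, the difference between wounded genotypes did not pass in the main fit (-0.86, edgeR adjusted p = 0.072). The Mperf15ko wound response of MpLOX6 lost its call without a filter on low counts (2.06) and with transcripts as features (2.07), and ranged from 1.55 to 2.96 with 1 library left out. In control thalli the genotype difference of MpLOX8 lost its call with only the 2 groups in the fit (-0.961), with transcripts as features (-0.95) and in limma on log2(TPM + 1) (-0.378), and ranged from -1.14 to -0.693 with 1 library left out. That of MpLOX7 passed with only the 2 groups (0.562) and ranged from 0.492 to 0.668 with 1 library left out. The genotype difference of the MpLOX6 to MpLOX8 ratio passed on TPM + 0.1 (0.97) and ranged from 0.593 to 1.46 with 1 library left out. The cause was not tested.

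Uncalled differences changed sign with 1 library left out: MpLOX7 in the Mperf15ko wound response (-0.0257, without wounded replicate 3 of that line), MpLOX6 between control genotypes (-0.0384 without Tak-1 control replicate 2, -0.492 without Mperf15ko control replicate 2) and between wounded genotypes (0.154, without Tak-1 wounded replicate 1), and the response difference of MpLOX6 (0.146) and of MpLOX6 and MpLOX8 summed (0.0405), both without Mperf15ko control replicate 2. Over these ranges MpLOX7 lay between -0.0257 and 0.371, and MpLOX6 between -0.492 and 0.925, -0.683 and 0.154, and -1.27 and 0.146, and the summed response difference between -0.687 and 0.0405.

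Among all genes, 4010 were called between control genotypes (2565 to 4110 with 1 library left out), 3352 between wounded genotypes (1832 to 3516) and 152 for the response difference (61 to 324, 468 with DESeq2, 41 with transcripts and 69 with limma on log2(TPM + 0.1)). Upper quartile scaling shifted the median of all genes by -0.134 in the Tak-1 and -0.118 in the Mperf15ko wound response, and the share of called genes that were higher from 50.7% to 36.2% and from 53.8% to 39.3%. The 3 neighbours kept their direction under it. In the Tak-1 wound response MpLOX7 went from -0.353 (edgeR adjusted p = 0.21) to -0.488 (edgeR adjusted p = 0.079), uncalled under both scalings. There 3 of 3 genes had an unadjusted edgeR p under 0.05 with upper quartile scaling, against 2 of 3 with TMM.

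Replicate numbers did not pair the libraries: deviations of same-numbered libraries correlated at -0.368 to 0.273, 5 of 18 pairs were above 0.1, and 2 of 12 libraries correlated best with their own number. With a replicate block MpLOX8 rose by 2.12 in Tak-1 and 1.97 in Mperf15ko, and the counts of called genes were 6224, 5920, 3619, 2926 and 130 in the 5 contrasts. The block changed no call of the 3 genes. MpLOX6 had 1.09 to 26.6 reads in control libraries, and its intervals were the widest of the 3 genes in all 5 contrasts.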
